A study of Mus musculus with 12 samples.

Results

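Mitochondrial solute carriers are the proteins of the Slc25 family, and their transcripts were measured in dissected tissue of CA1, the hippocampal field whose pyramidal neurons send much of its output. The members were all protein-coding mouse genes whose symbol begins with Slc25a and whose counts averaged at least 10 over the libraries. This left 40 of the 47 such genes in the annotation, out of 48709 gene IDs in the count files. The study compared 6 libraries from mice with myocardial infarction (MI), made by tying off a coronary artery, with 6 libraries from mice given similar surgery without the ligation (Sham). The labels used here state no genotype, strain, age, sex or time after surgery. Nothing in the labels ties each library to an animal of its own, so the spread behind the p-values may be partly technical.

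The inner membrane of the mitochondrion is tight to metabolites, and Slc25 proteins carry nucleotides, phosphate, organic acids, amino acids, cofactors and metals across it. Most of them have a common fold made of repeated pairs of membrane helices and are inserted by the Tim22 complex after import through the outer membrane. In brain the family supplies ATP to the cytosol, moves reducing equivalents through the malate-aspartate shuttle and feeds glutamate carbon into the matrix.

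No carrier differed between MI and Sham at an adjusted p under 0.05 (edgeR quasi-likelihood test, Benjamini-Hochberg adjustment over 16829 genes). That threshold called 0.0% of all genes. The smallest edgeR adjusted p among the members was 0.597, which was also the smallest over all genes. The carrier with the smallest unadjusted p was Slc25a45, a weakly expressed member in the branch of basic amino acid and acylcarnitine carriers, which was higher in MI in all 6 libraries. Slc25a5, an ADP/ATP carrier, and Slc25a39, a glutathione carrier, were the other members with an unadjusted p under 0.05, both with higher values in MI. Over the whole family 31 of 40 log2 fold changes were under 0.1 in size, a range that held 61.1% of all genes. Slc25a13 at 0.28 (SE 0.17) and Slc25a24 at -0.23 (SE 0.17) were larger in size than Slc25a5, with wide SEs.

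The promoters of the pair with the smallest unadjusted p are shown because these genes lead the comparison. Each runs from 250 bases before to 50 bases after the start site in RefSeq (GRCm38.p6), written 5′ to 3′, with the 50 bases after the start in capitals. The Slc25a45 promoter is chr19:5877572-5877871 and the Slc25a5 promoter is chrX:36795347-36795646, both on the plus strand. For Slc25a5 the RefSeq start lies 54 bases upstream of the GENCODE gene start, so its capitals end before the GENCODE transcript begins, and for Slc25a45 the starts are 14 bases apart.
Slc25a45: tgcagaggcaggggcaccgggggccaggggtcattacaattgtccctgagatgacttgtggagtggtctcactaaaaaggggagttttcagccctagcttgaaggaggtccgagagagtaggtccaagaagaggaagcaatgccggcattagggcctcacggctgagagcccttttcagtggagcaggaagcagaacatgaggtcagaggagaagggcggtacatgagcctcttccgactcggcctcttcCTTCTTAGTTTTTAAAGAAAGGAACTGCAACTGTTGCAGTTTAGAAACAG
Slc25a5: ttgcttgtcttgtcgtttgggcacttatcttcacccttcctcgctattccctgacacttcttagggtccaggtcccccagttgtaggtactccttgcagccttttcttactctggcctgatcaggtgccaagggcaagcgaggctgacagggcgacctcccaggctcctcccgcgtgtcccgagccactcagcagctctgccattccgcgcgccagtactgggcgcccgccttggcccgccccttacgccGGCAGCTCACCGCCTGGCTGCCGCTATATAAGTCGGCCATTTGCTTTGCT
A RefSeq promoter was matched by symbol for 31 of the 40 members, at the RefSeq start nearest the GENCODE gene start. That start lay 15083 bases away for Slc25a47, 440 for Slc25a11 and 429 for Slc25a39. The median GC content of the member promoters was 60.7%, against 57.0% over 16522 protein-coding promoters of the same length. The core of the motif of NRF1, a factor known for mitochondrial genes, was searched on both strands as GCATGCG alone, without variants. It was found in 0 of 31 member promoters, against 4.67% of all promoters. With 31 promoters and 1 exact sequence, this does not show that carrier promoters lack NRF1 sites. The half-site of estrogen-related receptors, AAGGTCA on either strand, was found in 1 of 31 (Slc25a34), against 3.92%. Neither sequence was present in the printed windows.

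Library totals ran from 20764133 to 35643127 counts, and the share taken by the members averaged 0.316% ± 0.0103 over MI libraries and 0.310% ± 0.0134 over Sham libraries (SD, n = 6 each). Of the CA1 neuron markers 9 were measured and all had counts in every library, with Sham 1 lowest in their summed level. Sham 6 was highest in dentate granule cell markers and Sham 1 in fibroblast and meningeal markers. Y-linked counts exceeded those of Xist, the transcript of the inactive X chromosome, in 3 libraries of each group, and these sets of libraries are not groups of the study. Levels below are CPM, counts scaled per library by TMM and by its total. Levels compared between genes are CPM per kilobase of exon, where the length merges the exons of all annotated transcripts. The transcripts in use may be shorter, so the order of genes on this scale depends on the annotation. In tissue libraries, fewer cells of a type and less RNA per cell cannot be told apart.

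Levels spanned a wide range. Their order rests on the merged exon length, which was 2353 bases for Slc25a4, 5294 for Slc25a23 and 5550 for Slc25a3. Slc25a4, the ADP/ATP carrier of heart, muscle and brain, had the highest level, with 230.9 ± 12.9 CPM per kilobase in MI and 216.2 ± 14.5 CPM per kilobase in Sham (SD, n = 6 each). Next came Slc25a23, a calcium-regulated carrier of ATP-magnesium and phosphate, with 96.4 ± 3.86 CPM per kilobase in MI and 97.3 ± 9.52 in Sham. Slc25a3, which brings in phosphate for ATP synthesis, had 69.9 ± 3.28 in MI and 67.2 ± 2.86 in Sham on the same scale. Slc25a11, the 2-oxoglutarate/malate carrier, Slc25a22, a glutamate carrier, and Slc25a5 followed between 39.2 and 46.6 CPM per kilobase in the group means. Slc25a11 and Slc25a22 differed by less than their SDs in both groups, and Slc25a5 lay below Slc25a11, at 43.6 ± 2.60 against 46.6 ± 2.23 in MI and 39.2 ± 2.17 against 45.0 ± 3.07 in Sham. Slc25a44, a carrier of branched-chain amino acids, and Slc25a18, another glutamate carrier, had 29.8 ± 1.51 and 28.7 ± 4.82 in MI, against 29.0 ± 2.29 and 30.0 ± 7.80 in Sham. The 4 members with the most reads, Slc25a4, Slc25a23, Slc25a3 and Slc25a22, held 53.9% of the family's counts.

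At the low end stood Slc25a13, the second aspartate/glutamate carrier, with 0.620 ± 0.0568 CPM per kilobase in MI and 0.506 ± 0.148 CPM per kilobase in Sham (SD, n = 6 each). It averaged 55.6 counts per library, which makes it the member nearest the minimum of 10. The gene nearest below was Slc25a21, the oxodicarboxylate carrier, with 8.33 counts. The other genes below the minimum were Slc25a48 with a mean of 5.17 counts, Slc25a43 with 5.08, Slc25a41 with 3.83, Slc25a2 with 3.17, Slc25a31, the testis ADP/ATP carrier, with 2.08, and Slc25a54 with 1.42.

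**Figure D1:**
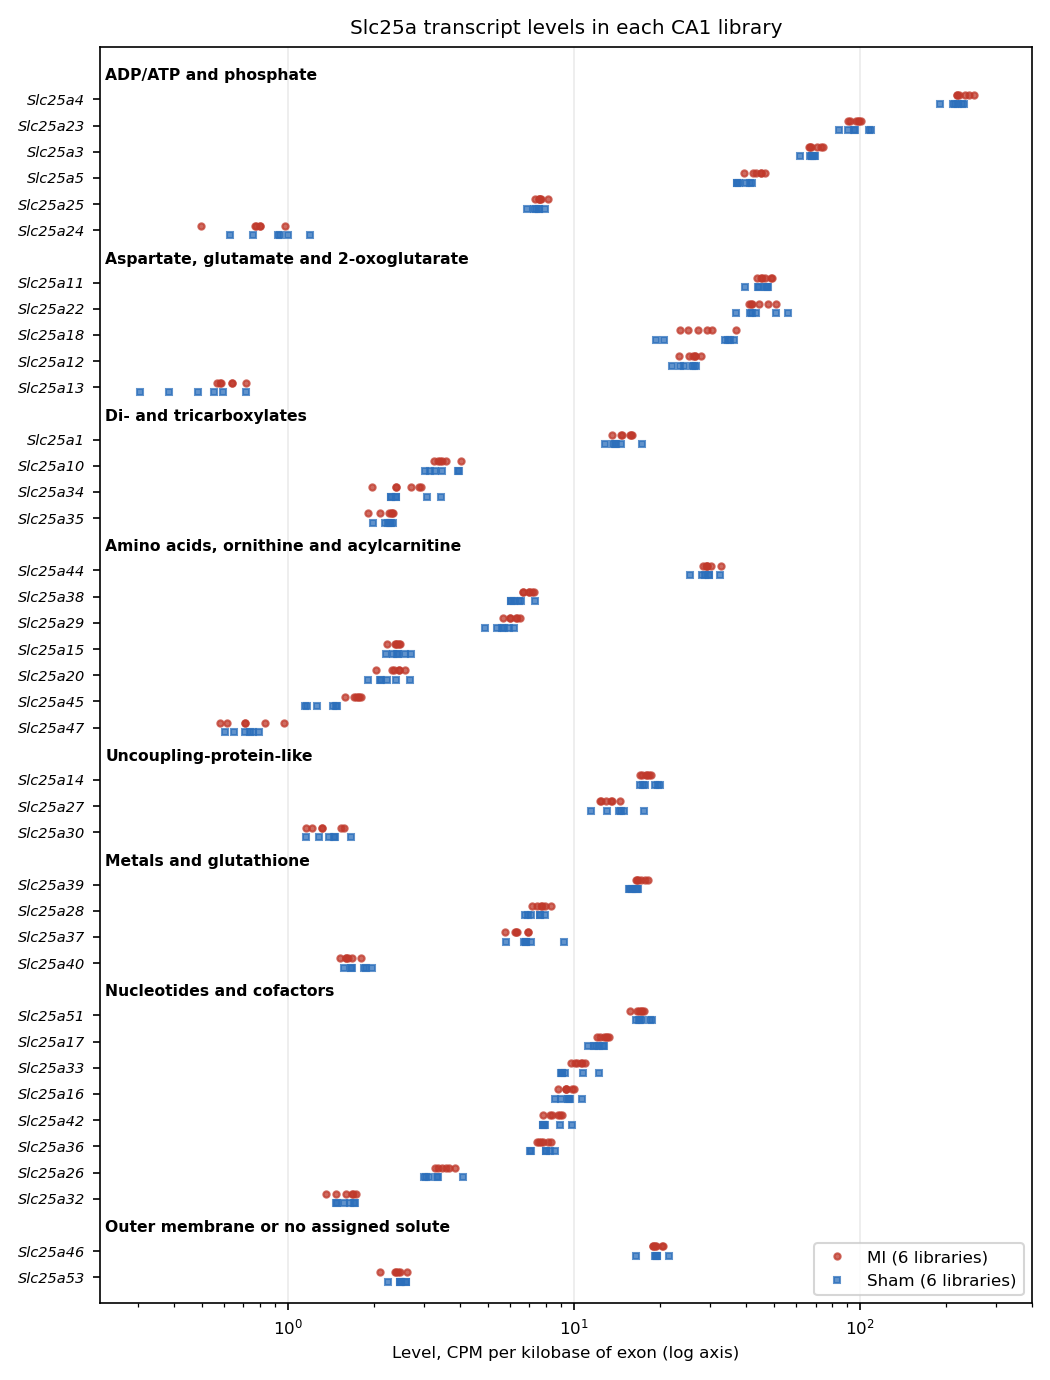
Level of each of 39 members in CPM per kilobase of exon on a log axis, 1 point per library, with MI (circles) above Sham (squares) and members grouped by the solute they carry. Levels run from under 1 for Slc25a13, Slc25a24 and Slc25a47 to over 200 for Slc25a4, and for most members the groups lie on top of each other.

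As a family the carriers were close to level between the groups. The log2 fold change was positive for 23 of the 40 members and negative for 17, against 47.6% positive over all genes, and its median was 0.03, against -0.01 over all genes. At an unadjusted p under 0.05, 3 members were higher and 0 lower in MI, against 3.95% of all genes higher and 3.59% lower. All 40 members passed the filter on low counts. The median size of the log2 fold change was 0.06 in the family and 0.07 over all genes. In DESeq2 0 members passed an adjusted p of 0.05, where 0.115% of genes did, and 2 had an unadjusted p under 0.05, where 7.76% of genes did. In limma-voom with sample weights 0 members passed the adjusted threshold and 4 had an unadjusted p under 0.05, where 11.0% of genes did.

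**Figure D2:**
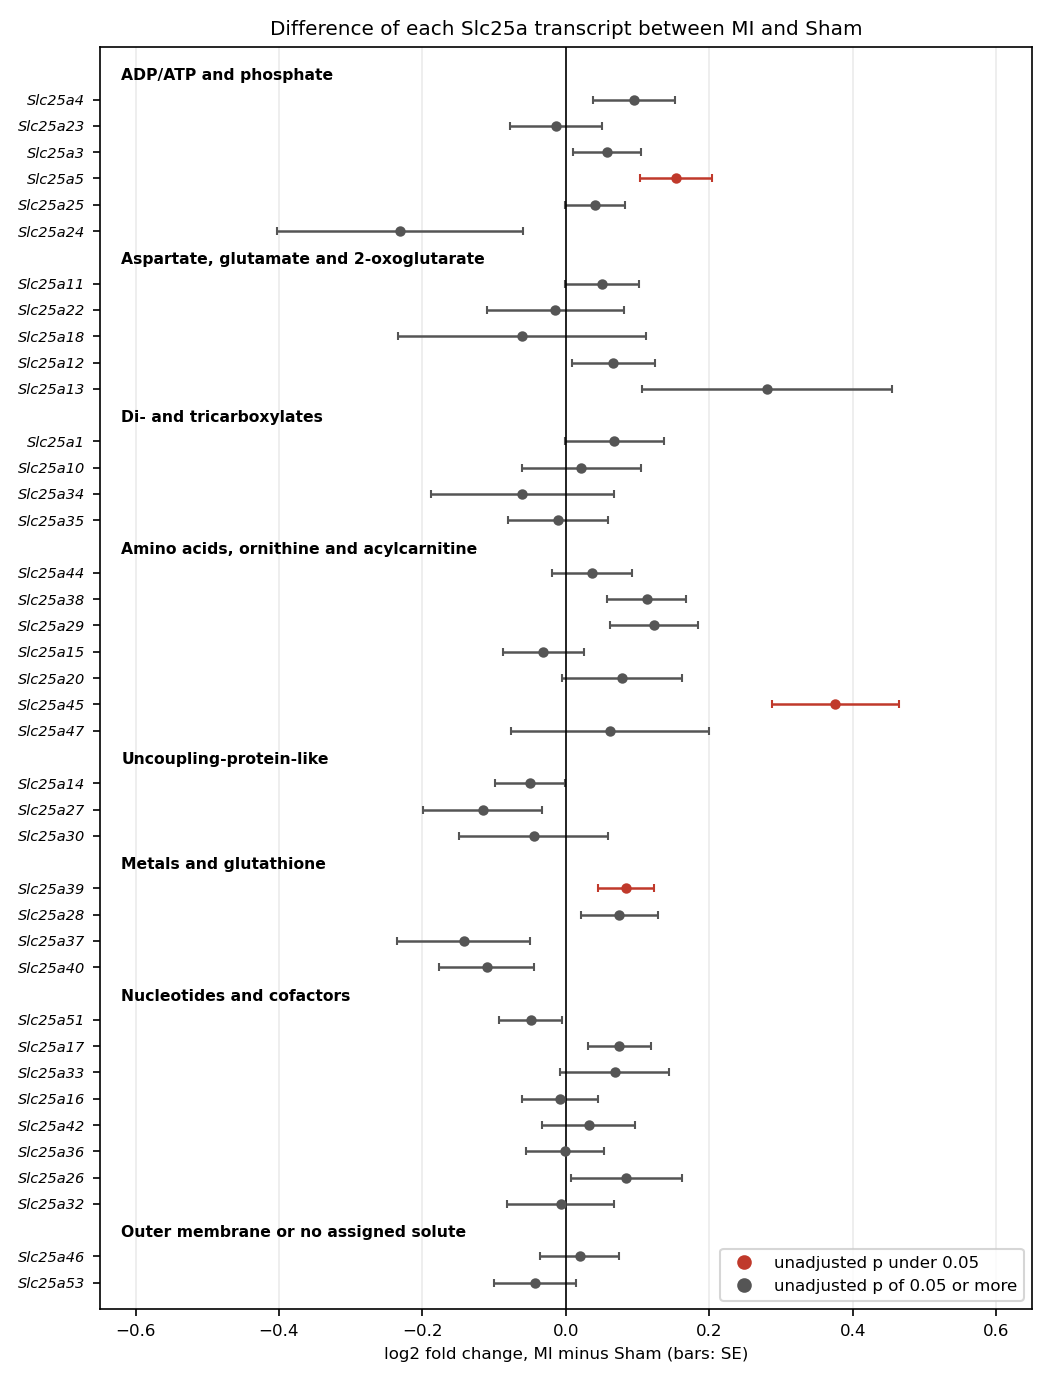
Log2 fold change, MI minus Sham, of each of 39 members with its standard error as a bar, grouped by solute. The 3 members with an unadjusted p under 0.05 (red) are Slc25a45 at 0.38, Slc25a5 at 0.15 and Slc25a39 at 0.08, and 0 members passed the adjusted threshold.

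The carriers of adenine nucleotides and phosphate make up 49.5% of the family's counts, and 4 of their 6 members had positive log2 fold changes. Slc25a5 (ENSMUSG00000016319, chromosome X, 36795651 to 36798807, GRCm38), the ADP/ATP carrier found in most dividing and non-muscle cells, had a lowest, median and highest level of 64.6, 72.8 and 76.6 CPM in MI, against 61.0, 64.0 and 69.2 CPM in Sham. In 5 of the 6 MI libraries it lay above every Sham library, and MI 5 fell within the Sham range. The log2 fold change was 0.15 (SE 0.05), with an unadjusted p of 0.00899 and an edgeR adjusted p of 0.597. Its unadjusted edgeR p rose above 0.05 with marker scores as covariates. With the score of the oligodendrocyte and myelin markers, which were higher in MI, the log2 fold change was 0.08 (SE 0.07, unadjusted p 0.254). That score overlaps with group, so the fit cannot tell them apart. With dentate and fibroblast scores the log2 fold change was 0.10 (unadjusted edgeR p 0.0549). The markers of both lists were all negative in log2 fold change, so that fit cannot tell them from group either. Slc25a4 (ENSMUSG00000031633, chromosome 8, 46206797 to 46211284) had 514.5, 536.0 and 589.8 CPM in MI, against 449.3, 512.3 and 546.4 CPM in Sham. The 6 MI values all exceeded the Sham median, but 3 of them lay within the Sham range, and the log2 fold change of 0.09 (SE 0.06) had an edgeR adjusted p of 0.736. The genes of both ADP/ATP carriers are similar in sequence and Slc25a5 has processed copies in the genome, so how reads were divided between copies is uncertain.

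Slc25a3 had 368.9, 385.1 and 412.0 CPM in MI, against 342.6, 378.0 and 385.7 CPM in Sham, and the groups overlapped in 3 of the 6 MI libraries. Slc25a23 had 482.1, 516.5 and 533.2 CPM in MI, against 446.9, 507.9 and 577.5 CPM in Sham, so that the MI libraries lay inside the Sham range. Slc25a25, another calcium-regulated member of that branch, had 57.4, 59.7 and 63.6 CPM in MI, against 53.8, 58.9 and 62.3 CPM in Sham, with a log2 fold change of 0.04 (SE 0.04). Slc25a24, the paralog of Slc25a23 with a like calcium-binding domain, was far lower, with 1.70, 2.69 and 3.34 CPM in MI, against 2.15, 3.20 and 4.10 CPM in Sham. Its log2 fold change of -0.23 (SE 0.17) was the most negative of the family and had an edgeR adjusted p of 0.792. Sham 1 had the highest Slc25a24 level and MI 4 the lowest. Sham 1 was also the highest library for fibroblast and meningeal markers, whose 10 members were all negative in log2 fold change (median -0.87), with a summed level of 53.2 to 161.8 CPM in MI and 61.8 to 373.2 CPM in Sham. Within MI, MI 6 was highest in those markers and MI 5 in Slc25a24. With dentate and fibroblast scores as covariates the log2 fold change of Slc25a24 was 0.01. The 10 dentate markers were also all negative (median -0.48), and 5 of the 10 fibroblast markers had an unadjusted edgeR p under 0.05. Neither score is free of group, so this fit cannot tell them from MI.

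Carriers of aspartate, glutamate and 2-oxoglutarate connect the mitochondrion to the malate-aspartate shuttle and to glutamate oxidation. Of 5 members 3 had positive log2 fold changes and 0 had an unadjusted p under 0.05. Slc25a12, the aspartate/glutamate carrier of neurons, had 171.3, 193.2 and 204.6 CPM in MI, against 162.1, 183.9 and 196.1 CPM in Sham, with a log2 fold change of 0.07 (SE 0.06). Slc25a11 had 92.7, 97.7 and 104.7 CPM in MI, against 83.9, 96.8 and 101.2 CPM in Sham, with a log2 fold change of 0.05 (SE 0.05). Its exons overlap those of Rnf167 on the opposite strand, and no source used here says whether counting used strand. Both shuttle carriers thus overlapped between the groups in most libraries.

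Slc25a13 had 2.15, 2.32 and 2.72 CPM in MI, against 1.15, 1.97 and 2.72 CPM in Sham. The MI libraries lay close together while Sham was spread, with Sham 1 lowest and Sham 4 highest, and the log2 fold change was 0.28 (SE 0.17, edgeR adjusted p 0.742). Oligodendrocyte and myelin markers were lowest in Sham 1, Sham 2 and Sham 3, the libraries in which Slc25a13 was also lowest. These were also the Sham libraries with Y-linked counts. With the myelin score as a covariate, an alternative chosen after the data were seen, the log2 fold change of Slc25a13 turned to -0.14 (SE 0.17). The score overlaps with group, so this fit cannot tell myelin signal from MI, and the cause was not tested.

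The glutamate carriers had no common direction beyond their spread. Slc25a22, whose loss causes epilepsy in humans, had 246.3, 258.6 and 304.6 CPM in MI, against 220.8, 255.3 and 335.0 CPM in Sham, with a log2 fold change of -0.015 (SE 0.10). Slc25a18, enriched in astrocytes, was the most variable abundant member, with 44.8, 54.0 and 70.7 CPM in MI, against 37.0, 65.2 and 69.6 CPM in Sham. Sham 5 and Sham 6 were low and the other 4 Sham libraries lay close together, and the log2 fold change was -0.06 (SE 0.17). Astrocyte markers had 5 of 10 positive log2 fold changes and a summed level of 5697 to 6863 CPM in MI and 5652 to 7681 CPM in Sham, with Sham 6 highest, the library in which Slc25a18 was lowest. The exons of Slc25a18 overlap those of Atp6v1e1 on the opposite strand over 32 of their 1911 bases. Atp6v1e1 had a mean of 7009 counts against 1430 for Slc25a18, but only reads that reach those 32 bases could belong to either gene.

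**Figure D3:**
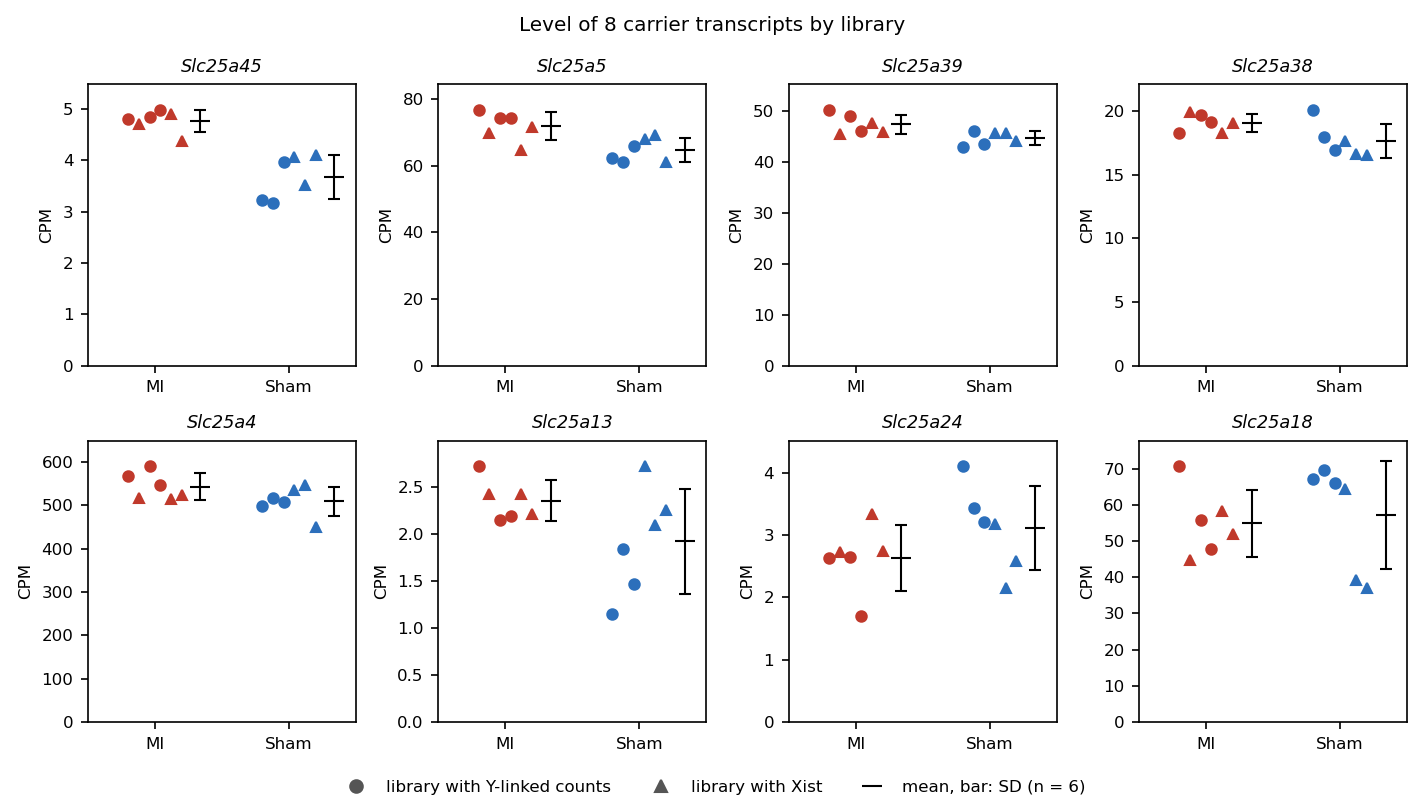
Level in CPM of 8 members in each library, MI left of Sham, with circles for libraries with Y-linked counts, triangles for libraries with Xist, and the mean with its SD as a bar. For Slc25a45 every MI library (4.37 to 4.97 CPM) lies above every Sham library (3.17 to 4.09 CPM), while the other 7 members overlap between the groups.

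Carriers of amino acids, ornithine and acylcarnitine were positive in 6 of 7 cases, with a median log2 fold change of 0.08. Slc25a45 (ENSMUSG00000024818, chromosome 19, 5877808 to 5885878) had 4.37, 4.82 and 4.97 CPM in MI, against 3.17, 3.74 and 4.09 CPM in Sham, at a mean of 108 counts per library. Every MI library was above every Sham library, and this was the 1 member of 40 whose groups did not overlap. Such a separation upwards was found in 0.25% of all genes and downwards in 0.16%. The log2 fold change was 0.38 (SE 0.09), with an unadjusted p of 0.000892 and an edgeR adjusted p of 0.597.

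A marker list that was also higher in MI was set beside Slc25a45. The 10 oligodendrocyte and myelin markers were all positive in log2 fold change (median 0.50), with a summed level of 5096 to 6450 CPM in MI and 2772 to 5629 CPM in Sham, and none at 0 in any library. The Sham libraries with the least myelin signal, Sham 1 and Sham 2, also had the least Slc25a45. Sham 3, the next lowest in myelin at 3459 CPM, had 3.97 CPM of Slc25a45. This was above the 3.51 CPM of Sham 5, which had 4776 CPM of myelin markers. Sham 4, at 5629 CPM of myelin markers, exceeded MI 5 and MI 6 at 5533 and 5096. Its Slc25a45 was lower than theirs, at 4.07 CPM against 4.90 and 4.37. With the myelin score as a covariate, chosen after the data were seen, the log2 fold change of Slc25a45 was 0.22 (SE 0.11, unadjusted edgeR p 0.0826). All 10 markers of that score had an unadjusted edgeR p under 0.05 for MI against Sham. Score and group therefore overlap, and this fit cannot tell myelin signal from MI. Slc25a45 is listed in the authors' deposited table for genes higher in MI with a log2 fold change of 0.19 and an adjusted p of 0.0181. The authors' method is not given here, so their log2 fold change and the 0.38 from edgeR may not share a scale, nor the adjusted p-values a test. The log2 expression values in the authors' deposited table are 7.80, 7.88 and 7.90 in MI as lowest, median and highest. In Sham they are 7.60, 7.69 and 7.76, without overlap. These values come from the same libraries as the counts, so their separation is not independent of that in CPM.

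Slc25a38, the glycine carrier needed for heme synthesis, is the other member listed in the authors' deposited table for genes higher in MI, with a log2 fold change of 0.12 and an adjusted p of 0.0415. The authors' deposited table for genes lower in MI holds 0 members. These tables took in 3.13% and 2.97% of the genes tested. In the counts Slc25a38 had 18.2, 19.1 and 19.9 CPM in MI, against 16.5, 17.3 and 20.1 CPM in Sham, where Sham 1 lay above all MI libraries and the other 5 Sham libraries lay below all of them. Its log2 fold change was 0.11 (SE 0.06, edgeR adjusted p 0.686).

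Slc25a29, a carrier of basic amino acids, had 14.8, 16.0 and 16.9 CPM in MI, against 12.8, 14.8 and 16.1 CPM in Sham. The MI values all exceeded the Sham median, and its log2 fold change was 0.12 (SE 0.06). It was singled out after its values were seen, as the next in order of p. Slc25a44 had 101.5, 104.6 and 116.7 CPM in MI, against 90.9, 104.5 and 115.9 CPM in Sham, medians that nearly coincide. The acylcarnitine carrier Slc25a20, the ornithine carrier Slc25a15 and Slc25a47 had log2 fold changes of 0.08 (SE 0.08), -0.03 (SE 0.06) and 0.06 (SE 0.14).

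Carriers of metals and glutathione split evenly, 2 positive and 2 negative. Slc25a39 (ENSMUSG00000018677, chromosome 11, 102402985 to 102407946) had 45.5, 46.8 and 50.1 CPM in MI, against 42.9, 44.9 and 46.1 CPM in Sham, with a log2 fold change of 0.08 (SE 0.04), an unadjusted p of 0.0483 and an edgeR adjusted p of 0.657. Every MI value exceeded the Sham median and 3 were above every Sham library. This unadjusted call was lost in DESeq2 (p 0.0579), in limma-voom (p 0.0729), with the myelin score (0.05, p 0.349) and with dentate and fibroblast scores (0.06, p 0.220). In edgeR it was lost with library totals only (p 0.0770), RLE scaling (p 0.05003), no count filter (p 0.0837) and the replicate block (p 0.120). Library subsets lost it as well: Y-linked libraries alone (edgeR p 0.0698), Xist libraries alone (p 0.517) and without Sham 1 and Sham 6 together (p 0.150). It was also lost when MI 1, MI 3, MI 5, Sham 1, Sham 3, Sham 4, Sham 5 or Sham 6 was left out, with log2 fold changes of 0.07 to 0.09 and p-values of 0.0519 to 0.118. Slc25a40, its paralog in glutathione import, had 12.8, 13.5 and 15.2 CPM in MI, against 13.2, 14.8 and 16.6 CPM in Sham, with a log2 fold change of -0.11 (SE 0.07) and 1 MI library above the Sham median.

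The mitoferrins, which bring iron to the sites of heme and iron-sulfur cluster synthesis, had opposite signs. Slc25a37 had 34.5, 38.0 and 41.7 CPM in MI, against 34.8, 41.0 and 55.8 CPM in Sham, where Sham 1 stood far above the rest, and its log2 fold change was -0.14 (SE 0.09). Without Sham 1 it was -0.05, and with dentate and fibroblast scores as covariates -0.0002. Those scores are not free of group, so the fit with them cannot tell them from MI. Slc25a28 had 26.7, 28.9 and 31.2 CPM in MI, against 25.4, 27.5 and 29.7 CPM in Sham, with a log2 fold change of 0.07 (SE 0.05). Neither passed the adjusted threshold, and the groups overlapped for both.

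The uncoupling-protein-like carriers had 3 of 3 negative log2 fold changes, the largest in size for Slc25a27 at -0.12 (SE 0.08, edgeR adjusted p 0.786). Slc25a27, a brain-enriched member also known as UCP4, had 48.5, 52.0 and 57.1 CPM in MI, against 45.4, 57.0 and 69.3 CPM in Sham, so the MI libraries lay inside the Sham range. Its highest Sham library was Sham 1, without which the log2 fold change was -0.05. It was -0.03 with dentate and fibroblast scores and -0.0079 with the myelin score. Neither fit can tell these scores from group. Slc25a14 and Slc25a30 had log2 fold changes of -0.05 (SE 0.05) and -0.05 (SE 0.10). Among di- and tricarboxylate carriers and their relatives, 2 of 4 were positive. Slc25a1, which exports citrate for lipid synthesis, had 29.5, 33.0 and 34.6 CPM in MI, against 27.8, 30.2 and 37.4 CPM in Sham, with a log2 fold change of 0.07 (SE 0.07). Slc25a10, which exchanges malate and succinate for phosphate, had a log2 fold change of 0.02 (SE 0.08). Slc25a34 and Slc25a35, placed here by sequence, had -0.06 (SE 0.13) and -0.01 (SE 0.07).

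Carriers of nucleotides and cofactors had log2 fold changes between -0.05 and 0.08 in 9 members, 5 of them positive. Slc25a17, a peroxisomal member that carries coenzyme A and related cofactors, had the smallest unadjusted p among them, with 34.2, 36.7 and 37.7 CPM in MI, against 31.9, 34.5 and 36.2 CPM in Sham. Its log2 fold change was 0.07 (SE 0.04, edgeR adjusted p 0.728). The pyrimidine nucleotide carriers Slc25a33 and Slc25a36 had log2 fold changes of 0.07 (SE 0.08) and 0.00 (SE 0.05). Slc25a33 had 18.5, 19.7 and 20.7 CPM in MI, against 17.0, 17.4 and 23.0 CPM in Sham, and Slc25a36 had 71.5, 74.2 and 79.8 CPM in MI, against 67.5, 76.9 and 82.3 CPM in Sham. In both, the MI libraries lay inside the Sham range. Among the cofactor carriers, Slc25a26, the S-adenosylmethionine carrier, had a log2 fold change of 0.08 (SE 0.08), with exons that overlap Lrig1 on the opposite strand. Slc25a51, which carries NAD, had 86.7, 93.8 and 97.3 CPM in MI, against 91.0, 94.6 and 103.4 CPM in Sham, with a log2 fold change of -0.05 (SE 0.04). Slc25a42, a coenzyme A carrier, Slc25a32, a folate and flavin carrier, and Slc25a16 had log2 fold changes of 0.03 (SE 0.06), -0.01 (SE 0.07) and -0.01 (SE 0.05).

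The last group holds members of the outer membrane or with no assigned solute. Slc25a46, an outer-membrane member linked to the shape of mitochondria and to human neuropathy, had 102.4, 104.6 and 111.5 CPM in MI, against 89.4, 105.5 and 116.5 CPM in Sham. The MI libraries lay inside the Sham range, with a log2 fold change of 0.02 (SE 0.06). Slc25a53, an orphan member on the X chromosome, had 16.7, 19.2 and 20.8 CPM in MI, against 17.9, 19.7 and 20.6 CPM in Sham, with a log2 fold change of -0.04 (SE 0.06).

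Ratios of related carriers within a library do not depend on library scaling, and 7 pairs were compared by an exact two-sided permutation test over all 924 arrangements of MI and Sham, whose smallest possible p is 0.00216. The log2 count ratio of Slc25a39 over Slc25a40 was 1.58, 1.83 and 1.85 in MI as lowest, median and highest, against 1.37, 1.60 and 1.74 in Sham. MI 2 lay inside the Sham range and the other 5 MI libraries above it. The mean ratio was 0.19 higher in MI (exact permutation p 0.0216, adjusted over 7 pairs 0.152). Without MI 2 the difference was 0.23 and passed the threshold (exact permutation, adjusted p 0.0455), so this call rests on which libraries are used.

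The ratio of Slc25a37 over Slc25a28 was 0.14, 0.44 and 0.58 in MI, against 0.43, 0.52 and 1.07 in Sham, a mean difference of -0.21 (exact permutation p 0.0758, adjusted 0.265). Slc25a4 over Slc25a5 was 2.88, 2.89 and 2.99 in MI, against 2.88, 2.98 and 3.08 in Sham, a mean difference of -0.06 (exact permutation, adjusted p 0.348). The counts of Slc25a12 over Slc25a13 differed by -0.28 and those of Slc25a23 over Slc25a24 by 0.23 (exact permutation, adjusted p 0.348 and 0.412), with SDs of 0.17 and 0.34 in MI and 0.44 and 0.46 in Sham. Slc25a36 over Slc25a33 and Slc25a22 over Slc25a18 differed by -0.07 and 0.02 (exact permutation, adjusted p 0.412 and 0.859).

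**Figure D4:**
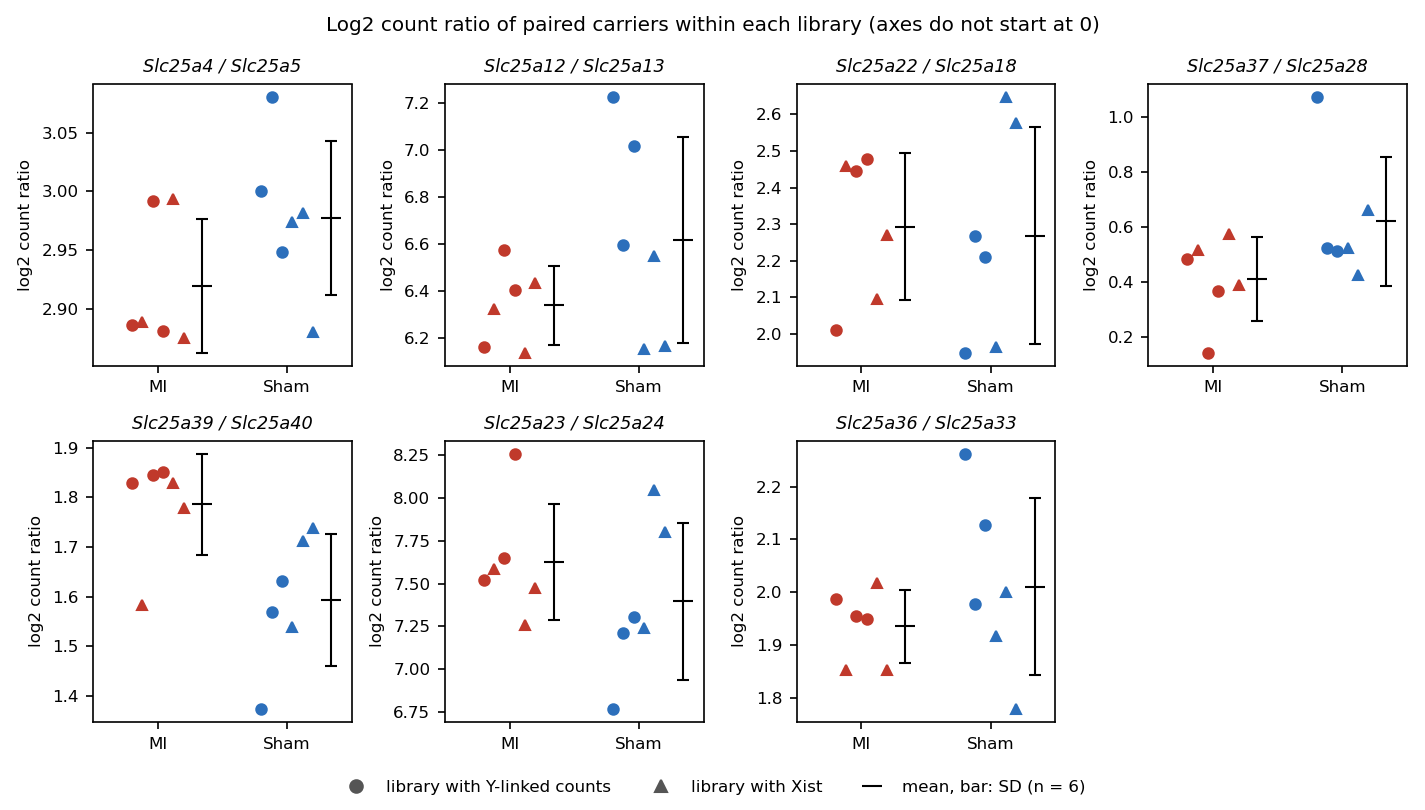
Log2 count ratio of 7 carrier pairs in each library, MI left of Sham, with circles for libraries with Y-linked counts, triangles for libraries with Xist, and the mean with its SD as a bar. For Slc25a39 over Slc25a40, 5 of 6 MI libraries lie above the highest Sham library at 1.74.

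The effect of MI was also read within each set of libraries, 3 of each per group. In the libraries with Y-linked counts the median size of the members' log2 fold change was 0.09, and in those with Xist 0.05, against 0.12 and 0.08 over all genes. The size was larger with Y-linked libraries for 28 of 40 members, against 65.4% of all genes, and the sign differed between the sets for 17 of 40, against 50.5% of all genes. Slc25a45 was positive in both, at 0.49 (SE 0.14) and 0.26 (SE 0.13). Slc25a5 had 0.25 (SE 0.06) and 0.06 (SE 0.07), Slc25a13 had 0.64 (SE 0.22) and 0.00 (SE 0.17), Slc25a24 had -0.63 (SE 0.21) and 0.16 (SE 0.19), and Slc25a14 had -0.14 (SE 0.06) and 0.04 (SE 0.06). These 4 were the members with an unadjusted interaction p under 0.05, found in 8.24% of all genes, and the smallest edgeR adjusted interaction p of a member was 0.551, where 0.0119% of all genes passed. Sham 1, Sham 2 and Sham 3, the Sham libraries with Y-linked counts, were also the 3 lowest in myelin markers, so set and myelin signal cannot be told apart in Sham.

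Genes that work beside the carriers were read from the same fit, and 0 of them passed the adjusted threshold. Of 4 tested family members under other symbols 3 were positive, with Ucp3 at 0.18 (SE 0.12) and Mtch2, an outer-membrane member, at -0.05 (SE 0.06), and Ucp1 had too few counts to be tested. Of 18 other mitochondrial transport genes 8 were positive, with a median of -0.0005. Smdt1, which encodes the EMRE subunit of the calcium uniporter, had 47.4, 52.2 and 56.5 CPM in MI, against 45.6, 47.9 and 49.3 CPM in Sham. It was the 1 gene of the 18 with an unadjusted p under 0.05, where 3.95% of all genes were higher and 3.59% lower. Its log2 fold change was 0.13 (SE 0.05). Sfxn2, a sideroflexin, had 0.08 (SE 0.06).

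The machinery that imports carriers was positive for 7 of 13 genes, with a median log2 fold change of 0.03, 3 genes higher at an unadjusted p under 0.05 and 0 lower, against 3.95% and 3.59% of all genes. Timm13, a small chaperone of the space between the membranes, had 35.5, 38.0 and 41.0 CPM in MI, against 32.6, 34.5 and 36.0 CPM in Sham, a log2 fold change of 0.15 (SE 0.05). Tomm40, the pore of the outer membrane, and Agk, a kinase that is part of the Tim22 complex, had 0.13 (SE 0.06) and 0.15 (SE 0.07). Of 6 redox shuttle enzymes 5 were positive, with Got2, the mitochondrial aspartate aminotransferase, at 0.11 (SE 0.06) and Mdh2, the mitochondrial malate dehydrogenase, at 0.07 (SE 0.05).

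Set beside the carriers, genes with complex I symbols were positive in 36 of 37 cases, a median of 0.12 on the log2 scale and 16 higher at an unadjusted p under 0.05, against 47.6% positive and 3.95% higher over all genes, with Ndufa7 at 0.23 (SE 0.05) and Ndufa13 at 0.16 (SE 0.05). The carriers in the same libraries had 23 of 40 positive, a median of 0.03 and 3 higher. The difference between these lists was not tested. The myelin markers, 10 of 10 positive with a median of 0.50, moved the same way as the complex I list, and their part in it was not tested.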

How the data were processed

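Per the labels' protocols, the libraries were made from polyadenylated RNA of CA1 tissue and read from a single end over 50 bases. The submitters' processing notes name STAR 2.5.2b, featureCounts, Subread 1.5.1, FastQC 0.11.5 and mm10, with no settings. Raw counts for each Ensembl gene were deposited by the authors, 1 file per library. The authors also deposited tables with log2 fold changes, adjusted p-values and log2 expression per library. Their method and any strand setting of the counting are not given here.

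Symbols, gene types, exon lengths and coordinates came from GENCODE M21 (GRCm38, the build mm10), which matched 48349 of 48709 IDs. Genes were filtered by filterByExpr (16829 kept), scaled by TMM and tested, MI against Sham with no covariates, by the robust quasi-likelihood F test of edgeR 4.0.16 under R 4.3.3, with a threshold of 0.05 on the Benjamini-Hochberg adjusted p. Standard errors (SE) of log2 fold changes, which are MI minus Sham, came from that fit. For log2 CPM the prior count was 2. The procedure was run on simulated counts drawn separately for each gene. They held no shifts in tissue make-up shared between genes, so that run says nothing about such shifts. Marker scores are the mean log2 CPM of a list. The myelin score was made a covariate after the data were seen. Its markers differed between MI and Sham, so fits with it cannot tell myelin signal from group. Dentate and fibroblast markers were all negative in log2 fold change, so fits with those scores have the same limit.

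The members and the lists were chosen with earlier results of these data known. Members named were those with an unadjusted p under 0.05 or in an authors' table, the 8 with the highest level per kilobase, the smallest p in each solute group and both genes of each of 7 pairs, and of each related list the 2 genes with the smallest p. The other members are given only to account for the family. A single member is counted but not reported here. Alternatives were DESeq2 1.42.0, limma-voom (limma 3.58.1), other scalings and filters, covariates, the replicate number as a block, library subsets and leaving out each library. Same-numbered libraries did not deviate together, except that MI 1 and Sham 1 were each other's closest match (correlation 0.405).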

Additional observations from a re-analysis of the deposited data

Results flagged for a closer look

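A library standing apart from the other 5 of its group was looked for in 92 groups (each of 39 members and each of the 7 pair ratios, in MI and in Sham), and 6 groups held one. Chance gives about 1 in 20.

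In MI, Slc25a15 was lowest in MI 1 at 12.5 CPM, with the next library at 13.4. The log2 ratio of Slc25a39 over Slc25a40 was lowest in MI 2 at 1.58, with the next at 1.78. In Sham, Slc25a3 was lowest in Sham 6 at 342.6 CPM, with the next at 370.5. Slc25a26, the S-adenosylmethionine carrier, was highest in Sham 5 at 19.8 CPM, with the next at 16.1, and Slc25a53 was lowest in Sham 5 at 17.9 CPM, with the next at 19.6. The log2 ratio of Slc25a37 over Slc25a28 was highest in Sham 1 at 1.07, with the next at 0.66. No member's effect of MI differed between the sets of libraries with Y-linked counts and with Xist at an adjusted p under 0.05 (edgeR interaction, smallest adjusted p 0.551, and 4 members at an unadjusted p under 0.05).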

How the results depend on the processing

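In 25 alternatives 0 of the 23 named members passed an adjusted p of 0.05, and the smallest was 0.0827 (Slc25a5, Y-linked libraries alone). The direction held in every alternative for 12 of the 23, among them Slc25a45 (0.22 to 0.49), Slc25a5 (0.06 to 0.25), Slc25a39 (0.04 to 0.13) and Slc25a38 (0.05 to 0.19). The count of genes past the threshold was 0 in edgeR, 16 in DESeq2 and 211 with Y-linked libraries alone. Members higher at an unadjusted edgeR p under 0.05 numbered 3, where 3.95% of all genes were higher. They numbered 4 with Y-linked libraries alone and 2 to 4 when a library was left out. There was 1 with Xist libraries alone and 1 with the myelin score as a covariate. In both cases it was Slc25a38 (edgeR p 0.0462 and 0.0278) and none of the 3. Members lower numbered 0, where 3.59% of all genes were lower. There was 1 lower in limma-voom, 2 with Y-linked libraries alone and 0 to 2 when a library was left out (2 without Sham 5, 1 without Sham 6). Shares over all genes are not given here for the library subsets and covariate fits. The median of the members stayed between 0.01 and 0.04. Another library scaling moved the median of all genes by -0.0006 and -0.004.

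Signs turned as follows, and the cause was not tested. With Xist libraries alone the log2 fold change was 0.022 for Slc25a37, 0.16 for Slc25a24, -0.0022 for Slc25a33, 0.0047 for Slc25a53, 0.14 for Slc25a18, 0.0572 for Slc25a22 and 0.0121 for Slc25a36, and the ratio differences were 0.0101 for Slc25a12 over Slc25a13, -0.12 for Slc25a22 over Slc25a18, -0.26 for Slc25a23 over Slc25a24 and 0.0093 for Slc25a36 over Slc25a33. With the myelin score it was -0.14 for Slc25a13, 0.0183 for Slc25a37, 0.0258 for Slc25a24, -0.0876 for Slc25a33, 0.17 for Slc25a18 and 0.18 for Slc25a22. With dentate and fibroblast scores it was 0.0074 for Slc25a24, 0.11 for Slc25a18 and 0.0214 for Slc25a36. Without Sham 1 and Sham 6 it was -0.0004 for Slc25a11, -0.0115 for Slc25a44 and 0.0527 for Slc25a36. In limma-voom it was -0.0064 for Slc25a44 and 0.0182 for Slc25a23, which had 0.0665 with Y-linked libraries alone, and without a count filter it was 0.0080 for Slc25a36.

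Leaving out single libraries gave ranges of -0.0012 to 0.0688 for Slc25a44, -0.16 to 0.0026 for Slc25a18, -0.0529 to 0.0197 for Slc25a23, -0.0683 to 0.0564 for Slc25a22 and -0.0302 to 0.0253 for Slc25a36. It gave -0.0397 to 0.10 for the ratio of Slc25a22 over Slc25a18 and 0.15 to 0.23 for Slc25a39 over Slc25a40, which passed when MI 2 was left out (exact permutation, adjusted p 0.0455) and not otherwise. With the replicate block 0 genes and 0 members passed, 24 members were positive, and Slc25a36 had 0.0014; same-numbered libraries correlated between -0.35 and 0.41 in their deviations from the group means, so the numbers were not taken as pairs. The low counts of Slc25a13, Slc25a24, Slc25a45 and Slc25a47, under 110 per library on average, limit their precision.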
